A study of Mus musculus with 10 samples.

Results

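Neutrophil granule and calprotectin transcripts were followed animal by animal in whole mouse lung after arsenic in the drinking water. The members are 10 genes, S100a8, S100a9, Csf3r, Retnlg, Ngp, Camp, Ltf, Mmp8, Mmp9 and Lcn2, and every probe set whose single gene symbol in the platform annotation is one of them was taken. 9 of the 10 genes had such a probe set, 10 probe sets in all among the 45101 on the array. Mmp9 had 2, the other genes 1 each, and Retnlg was not analysed here. After the filter on dim probe sets described under the processing, 7 members were tested among 11333 genes. Ngp and Camp were read without the filter.

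The animals were adult female mice of the inbred strain C57BL/6, 8 weeks old at the start, with no genetic change named. 5 were given 50 ppm arsenic in drinking water for 12 weeks, and 5 controls had deionized water. Total RNA of the lung of each animal was hybridised to 1 Affymetrix array, so replicates are separate animals. The series names the compound arsenate and the sample fields name arsenite, so the treatment is called arsenic here. The animal codes in the titles begin with 20 in the 5 arsenic animals and with 4 in the 5 controls. The labels do not explain this number, and whatever it stands for cannot be told apart from arsenic. The labels do not say whether blood was flushed from the lungs.

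Neutrophils are short-lived white cells that circulate in blood and gather in the narrow capillaries of the lung. They make their granule proteins in the bone marrow in a fixed order, so messages for the early granules are lost before release, while S100a8 and S100a9, the subunits of the calcium-binding protein calprotectin, stay abundant in mature cells. Some of the same proteins have a second source in the lung: lactoferrin (Ltf) and lipocalin 2 (Lcn2), which keep iron from bacteria, are also made by airway epithelium.

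Values are log2 expression as deposited, so a difference of 1 is a doubling. Array medians were 4.11 to 4.26, and arrays correlated at 0.990 to 0.997 over all probe sets. The lung markers Scgb1a1 of club cells (16.17 to 16.32) and Ager of alveolar type I cells (15.29 to 15.59) were high in every sample. Transcripts of kidney tubule were also read: the mean level of all 22 with a probe set, 10 of them below the filter, was 3.96 to 5.52 in controls and 4.97 to 6.32 in arsenic lungs. Fewer cells of a type and less RNA per cell cannot be told apart in whole tissue.

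The upstream sequences of 5 members are shown because S100a8, S100a9, Csf3r and Mmp8 varied together from animal to animal and Ltf followed another order. Each is the 250 bases before the start site in RefSeq's GRCm38.p6 annotation, read 5′ to 3′ on the gene's own strand. Capitals mark 3 motifs searched on both strands: the TATA box TATAAA, the C/EBP pattern TTNNGNAA and the PU.1 core GAGGAA, which reads TTCCTC on the other strand. C/EBP factors and PU.1 are the transcription factors that drive granulocyte development.
S100a8, chr3:90668821-90669070, plus strand: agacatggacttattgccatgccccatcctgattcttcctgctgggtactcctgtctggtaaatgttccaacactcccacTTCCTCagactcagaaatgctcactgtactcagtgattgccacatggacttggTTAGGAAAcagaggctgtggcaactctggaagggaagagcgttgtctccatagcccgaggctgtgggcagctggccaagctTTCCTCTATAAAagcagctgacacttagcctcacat
S100a9, chr3:90695722-90695971, minus strand: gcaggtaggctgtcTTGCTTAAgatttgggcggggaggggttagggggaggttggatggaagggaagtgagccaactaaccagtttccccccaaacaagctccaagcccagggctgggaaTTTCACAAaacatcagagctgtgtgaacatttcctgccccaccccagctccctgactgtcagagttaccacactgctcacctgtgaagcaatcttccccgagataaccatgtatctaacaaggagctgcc
Csf3r, chr4:126024409-126024658, plus strand: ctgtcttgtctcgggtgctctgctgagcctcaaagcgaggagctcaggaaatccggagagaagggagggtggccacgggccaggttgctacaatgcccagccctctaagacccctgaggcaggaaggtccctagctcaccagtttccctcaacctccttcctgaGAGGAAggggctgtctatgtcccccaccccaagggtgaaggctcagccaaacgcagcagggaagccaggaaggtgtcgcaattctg
Mmp8, chr9:7558179-7558428, plus strand: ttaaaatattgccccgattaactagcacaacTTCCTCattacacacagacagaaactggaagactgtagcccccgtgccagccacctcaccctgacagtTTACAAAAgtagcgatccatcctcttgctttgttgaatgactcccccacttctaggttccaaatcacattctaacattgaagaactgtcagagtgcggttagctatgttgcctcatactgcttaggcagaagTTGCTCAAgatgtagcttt
Ltf, chr9:111019042-111019291, plus strand: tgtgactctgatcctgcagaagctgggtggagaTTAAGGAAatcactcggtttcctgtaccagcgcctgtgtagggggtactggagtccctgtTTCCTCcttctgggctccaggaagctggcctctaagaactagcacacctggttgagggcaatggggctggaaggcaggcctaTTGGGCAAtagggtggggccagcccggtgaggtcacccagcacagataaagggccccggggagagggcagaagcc

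A TATA box was found in 1 of the 9 member promoters in the table, that of S100a8, where it begins at -30 from the start site and directly follows a PU.1 core on the other strand at -36. Over all 32851 promoters of this length, 12.4% held that motif. The C/EBP pattern was found in 7 of the 9, against 36.8% of all promoters, and the PU.1 core in 5 of the 9, against 23.3%. The S100a9 promoter held the C/EBP pattern at 2 places and no PU.1 core, that of Csf3r a PU.1 core and no C/EBP pattern, and those of Mmp8 and Ltf both motifs. A match describes letters only and is no evidence of binding. S100a8 and S100a9 are neighbours on chromosome 3, and Ltf, Ngp, Camp and Mmp8 all lie on chromosome 9.

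No member gene passed the test between arsenic and control lungs. Over all tested genes 0.476% passed an adjusted p of 0.05 (54 of 11333 by limma with Benjamini-Hochberg adjustment, 43 higher and 11 lower), and 0 of the 7 members did. At an unadjusted p of 0.05 there were 0 members as well, against 15.7% of all genes. In none of the 7 were the groups separate, where 3.63% of all genes had groups that did not overlap. With every one of the 45101 probe sets tested, 0.0421% passed, and 0 of the 10 member probe sets; groups did not overlap in 4.57% of probe sets and in 0 of the 10. The members' differences had a median of -0.02 with 3 of 7 above zero; over all genes the median was 0.057 and 63.2% were above zero. What set these genes apart from one another was how they varied among animals of the same group, and above all the level in control animal 2.

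S100a8, the first calprotectin subunit, stood at 12.36, 14.97, 13.80, 12.21 and 12.29 in control animals 1 to 5 and at 13.14, 13.70, 12.72, 13.33 and 13.00 in arsenic animals 1 to 5. Control animal 2 was highest and control animal 3 next, while the other 3 controls lay below every arsenic animal; the groups overlapped. The means were 13.13 ± 1.22 (SD, n = 5) and 13.18 ± 0.37 (SD, n = 5). The difference was 0.05 (SE 0.49, 95% interval -1.03 to 1.14, limma adjusted p = 0.963). The name of this probe set ends in _s_at, the manufacturer's mark for probes that may also match transcripts of a related gene.

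S100a9 encodes the other calprotectin subunit. Its values were 10.86, 14.40, 12.82, 11.09 and 11.17 in controls and 12.09, 12.75, 11.60, 12.40 and 12.06 with arsenic. The order was nearly that of S100a8: control animals 2 and 3 at the top, the other 3 controls at the bottom and all 5 arsenic animals between them. Means of 12.07 ± 1.52 and 12.18 ± 0.43 (SD, n = 5 each) gave a difference of 0.11 (SE 0.61, 95% interval -1.24 to 1.45, limma adjusted p = 0.943).

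Csf3r is the receptor for granulocyte colony-stimulating factor, the main growth signal of neutrophils, and sits on the surface rather than in granules. Its values were 6.60, 9.67, 8.63, 6.86 and 6.81 in controls, and 7.32, 7.62, 7.41, 8.06 and 7.58 with arsenic. Again the arsenic animals fell into the gap between control animals 2 and 3 above and control animals 1, 4 and 5 below. The difference was -0.12 (SE 0.54, 95% interval -1.31 to 1.07, limma adjusted p = 0.926).

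Mmp8, neutrophil collagenase, is stored in the specific granules. Its values were 5.35, 8.88, 6.77, 6.14 and 5.80 in controls and 6.47, 7.66, 6.17, 7.32 and 6.85 with arsenic. Control animal 2 was highest and control animals 1, 4 and 5 were the lowest 3, but control animal 3 lay inside the arsenic range. The difference of 0.31 had an SE of 0.58 and a 95% interval of -0.98 to 1.59 (limma adjusted p = 0.810).

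Mmp9, gelatinase B of the gelatinase granules, is also made by macrophages. Its brighter probe set read 7.56, 10.07, 8.51, 7.34 and 7.36 in controls and 7.59, 8.15, 7.55, 7.56 and 7.54 with arsenic. The other read 5.12, 8.83, 7.09, 4.76 and 5.41 in controls and 5.91, 6.57, 5.68, 5.90 and 6.23 with arsenic. Both put control animal 2 first, control animal 3 next and arsenic animal 2 after it. By the brighter one 2 of 5 arsenic animals lay above the control median, by the dimmer one 5 of 5. The differences were -0.49 (SE 0.46, limma adjusted p = 0.605) and, tested among all probe sets, -0.18 (SE 0.73, limma adjusted p = 0.892).

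**Figure D1:**
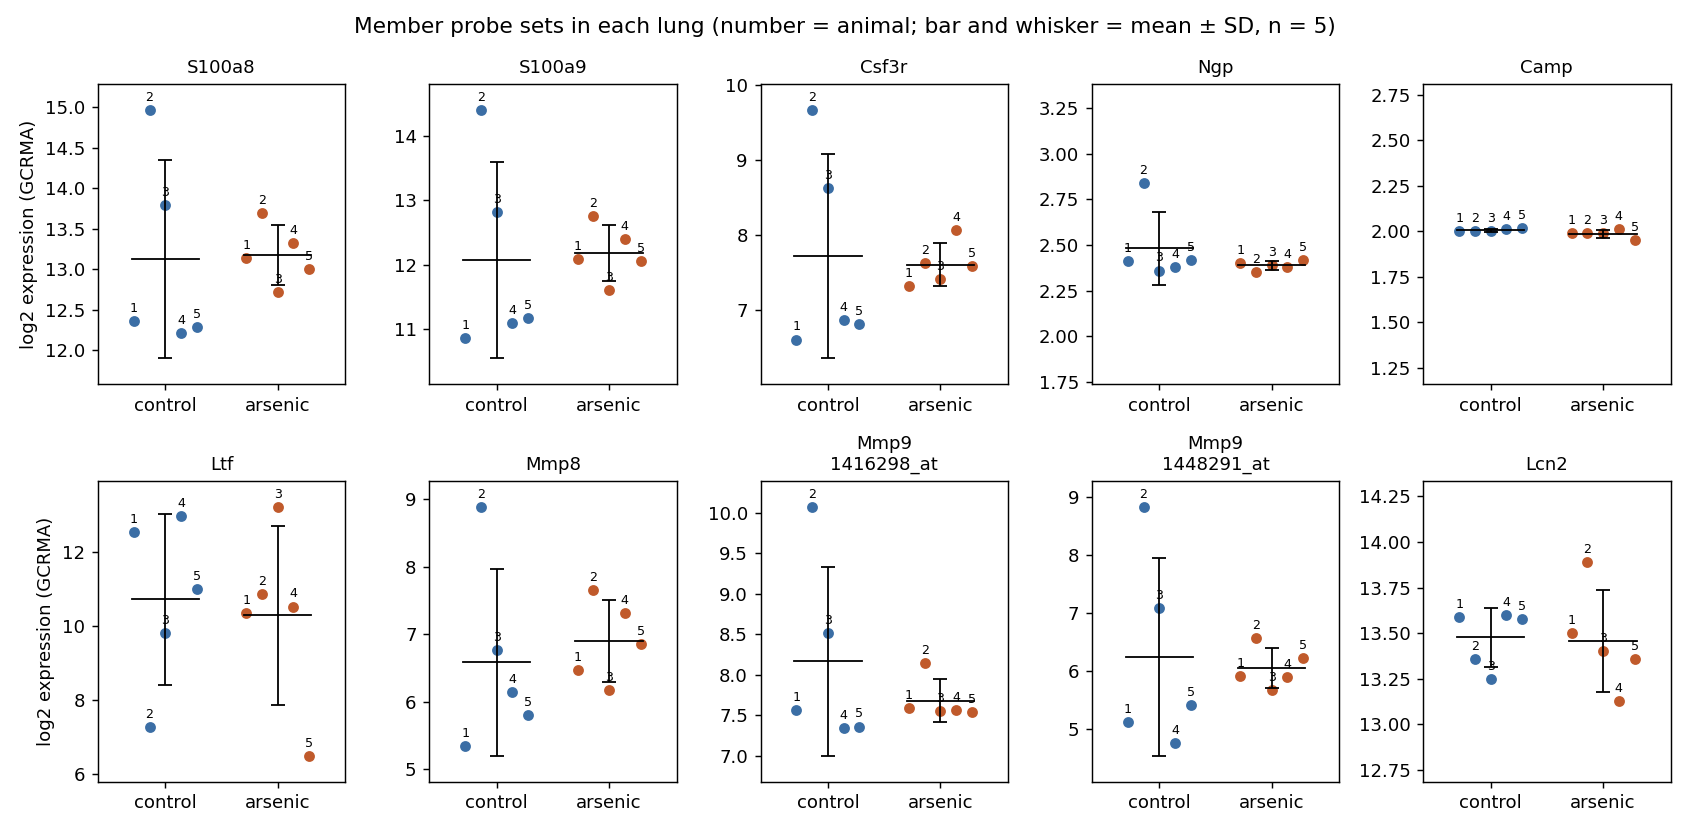
Log2 expression (vertical axis) of the 10 member probe sets in each control (blue) and arsenic (orange) lung, with the animal number beside each point and the mean ± SD of 5 animals as bar and whisker; axes differ between panels and do not start at 0. Control animal 2 is the highest point for S100a8, S100a9, Csf3r, Mmp8 and both Mmp9 probe sets and the second lowest of all 10 for Ltf, and the Camp points lie between 1.95 and 2.02.

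In these 5 genes the control group was spread more widely than the arsenic group. The ratio of the control SD to the arsenic SD was 3.32 for S100a8, 3.56 for S100a9, 4.79 for Csf3r, 2.28 for Mmp8 and 4.44 for the brighter Mmp9 probe set. Without control animal 2 the control SD was 0.76, 0.90, 0.94, 0.60 and 0.55 in the same order, against arsenic SDs of 0.37, 0.43, 0.29, 0.61 and 0.26, so in Mmp8 that animal alone made the controls the wider group. Control animal 2 lay above the median of the other 4 controls by 6.24-fold in S100a8, 9.66-fold in S100a9, 7.14-fold in Csf3r, 7.5-fold in Mmp8, and by 6.10-fold in the brighter and 11.8-fold in the dimmer Mmp9 probe set. Control animal 3 lay above the median of control animals 1, 4 and 5 by 1.96-fold in Mmp8 to 3.93-fold in the dimmer Mmp9 probe set. No test of these ratios was made, since control animal 2 was singled out after its values were seen. All 5 arsenic animals exceeded the control median in S100a8, S100a9, Csf3r and Mmp8, although the mean differences lay between -0.12 and 0.31. In Ltf and in Lcn2 1 of 5 did. The share of all genes with such an order is not given here. Since these genes varied together from animal to animal, they are not separate observations, and no result about arsenic is drawn from the count.

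Leaving out control animal 2 therefore moved each of the 5 estimates. S100a8 went from 0.05 to 0.51 (SE 0.33, limma adjusted p = 0.404) and S100a9 from 0.11 to 0.69 (SE 0.39, limma adjusted p = 0.356). Csf3r turned from -0.12 to 0.37 (SE 0.37, limma adjusted p = 0.583), and Mmp8 went from 0.31 to 0.88 (SE 0.35, limma adjusted p = 0.252). Mmp9 went from -0.49 to -0.015 by the brighter probe set and from -0.18 to 0.47 by the dimmer. Without that animal 1 of the 7 members, Mmp8, reached an unadjusted p of 0.05 by limma, and 0 passed after adjustment. Over all genes 31 of 11333 passed after adjustment in that fit. The share of all genes at the unadjusted cut was 15.7% with every animal kept, and is not given here for the fit without control animal 2. That animal was singled out after its values were seen, and the p-values without it do not allow for this choice. The signs of S100a8 and S100a9 also turned without other animals: leaving out control animal 1, 4 or 5 or arsenic animal 2 gave values of -0.17 to -0.076 for S100a8 and -0.20 to -0.035 for S100a9.

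**Figure D2:**
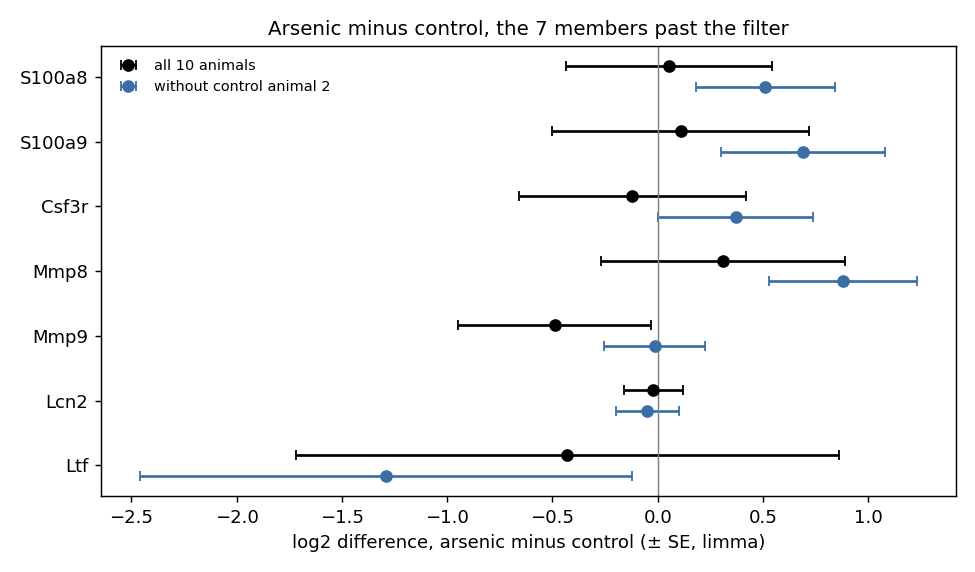
Log2 difference, arsenic minus control (horizontal axis), with its limma standard error for the 7 members past the filter, with all 10 animals (black) and without control animal 2 (blue). S100a8, S100a9, Csf3r and Mmp8 lie between -0.12 and 0.31 with all animals and between 0.37 and 0.88 without control animal 2, Lcn2 has the shortest bars and Ltf the longest, and none passed an adjusted p of 0.05 in either fit.

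Across the 10 animals the 5 genes followed one another. Of the 21 pairs among the 7 members, 10 passed an adjusted permutation p of 0.05 by Pearson's r, and these were the 10 pairs among S100a8, S100a9, Csf3r, Mmp8 and Mmp9. The 5 genes were put together after their values were seen. Their r was 0.81 to 0.99, and 0.90 to 0.99 after each group's mean was subtracted. S100a8 and S100a9 had r = 0.99 (adjusted permutation p = 0.00021; the unadjusted 1e-05 is the smallest that the permutations can give) and rho = 0.96 (adjusted permutation p = 0.00084). Without control animals 2 and 4, the farthest from the S100a8 median, their r was still 0.98 over 8 animals.

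Since control animal 2 stands apart, the pairs were also taken over the other 9 animals. S100a8 then had r = 0.98 with S100a9, 0.88 with Csf3r, 0.83 with Mmp8 and 0.84 with Mmp9. In all 8 of the 10 pairs passed (permutation test, adjusted over 21 pairs), while Csf3r with Mmp8 had r = 0.72 (adjusted permutation p = 0.063) and Mmp8 with Mmp9 r = 0.51 (adjusted permutation p = 0.28). By Spearman's rho over all 10 animals, Csf3r with Mmp9 (0.65, adjusted permutation p = 0.078) and Mmp8 with Mmp9 (0.59, adjusted permutation p = 0.11) did not pass. Without the 2 animals farthest from the median, r over the 10 pairs was 0.44 to 0.98, lowest for Csf3r with Mmp9.

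Ltf, an iron-binding protein of the specific granules and of airway secretions, varied far more and in another order. It read 12.54, 7.25, 9.81, 12.97 and 10.99 in controls and 10.35, 10.86, 13.21, 10.52 and 6.49 with arsenic. Arsenic animal 5 and control animal 2 were the lowest, arsenic animal 3 and control animal 4 the highest, and the groups spanned nearly the same range. From lowest to highest lung the range was 6.71, or 105-fold. The difference was -0.43 (SE 1.29, 95% interval -3.26 to 2.41, limma adjusted p = 0.886), and -1.29 (SE 1.17, limma adjusted p = 0.541) without control animal 2. Without arsenic animal 5 it turned to 0.52 (SE 1.1, limma adjusted p = 0.861). With the 5 genes above Ltf had r of -0.68 to -0.54, and 0 of these 5 pairs passed (with S100a8 r = -0.64, adjusted permutation p = 0.07). That depended on arsenic animal 5, which was left out after its values were seen. Over the other 9 animals r was -0.89 to -0.81 and all 5 pairs passed (adjusted permutation p = 0.0054 to 0.014 over 21 pairs), 3 of them also by rho. These p-values do not allow for that choice of animal. Without control animal 2 as well, r was -0.74 to -0.56 over 8 animals and 0 of the 5 passed (adjusted exact permutation p = 0.1 to 0.2).

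Ltf was therefore set beside the 6 genes of the airway epithelial list that are not members, a comparison chosen after the values were seen. Lcn2, a member that is also on that list, had r = 0.35 with Ltf over the 10 animals (adjusted permutation p = 0.4). Without control animal 2 and arsenic animal 5 their r was 0.26 over 8 animals. Bpifa1, a secreted protein of the upper airway, read 4.10 in control animal 2, 8.22 in arsenic animal 5 and 13.32 to 15.85 in the other 8 lungs. Bpifb1, a secreted protein of the same family, read 6.09 and 5.16 in these lungs and 12.53 to 15.01 in the other 8. The mucin gene Muc5b read 7.57 and 5.08, against 10.11 to 12.28. The same 2 lungs thus stood apart in Ltf and in the 3 secretory genes, and they come from different groups.

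Because those 2 lungs form a cluster of their own, correlations were taken over the other 8 animals with an exact permutation test, adjusted over the 6 pairs. Ltf had r = 0.96 with Bpifa1 (rho = 0.90, adjusted exact p = 0.0019 for r and 0.014 for rho) and r = 0.88 with Bpifb1 (rho = 0.90, adjusted exact p = 0.0071 and 0.014). With Muc5b r was 0.76 (adjusted exact p = 0.054) and rho 0.83 (adjusted exact p = 0.031). Scgb3a2 and Cyp2f2, genes of club cells, had r of 0.43 and 0.14 and did not pass. Scgb1a1, the club cell secretoglobin, had r = -0.73 (adjusted exact p = 0.034) and rho = -0.66 (adjusted exact p = 0.096), but its whole range over the 10 lungs was only 16.17 to 16.32, at the top of the scale of the array. These p-values do not allow for the choice of genes, and high r was not particular to this list. By group-centred r over the same 8 animals Bpifa1 (0.968) ranked 8 among all genes tested, with Cdh26 (0.991) first. Adipoq, a gene of fat cells, had 0.95 and Car3 0.94. The amount of upper airway in each dissected piece is not in the labels, and its part in the Ltf values was not tested.

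**Figure D3:**
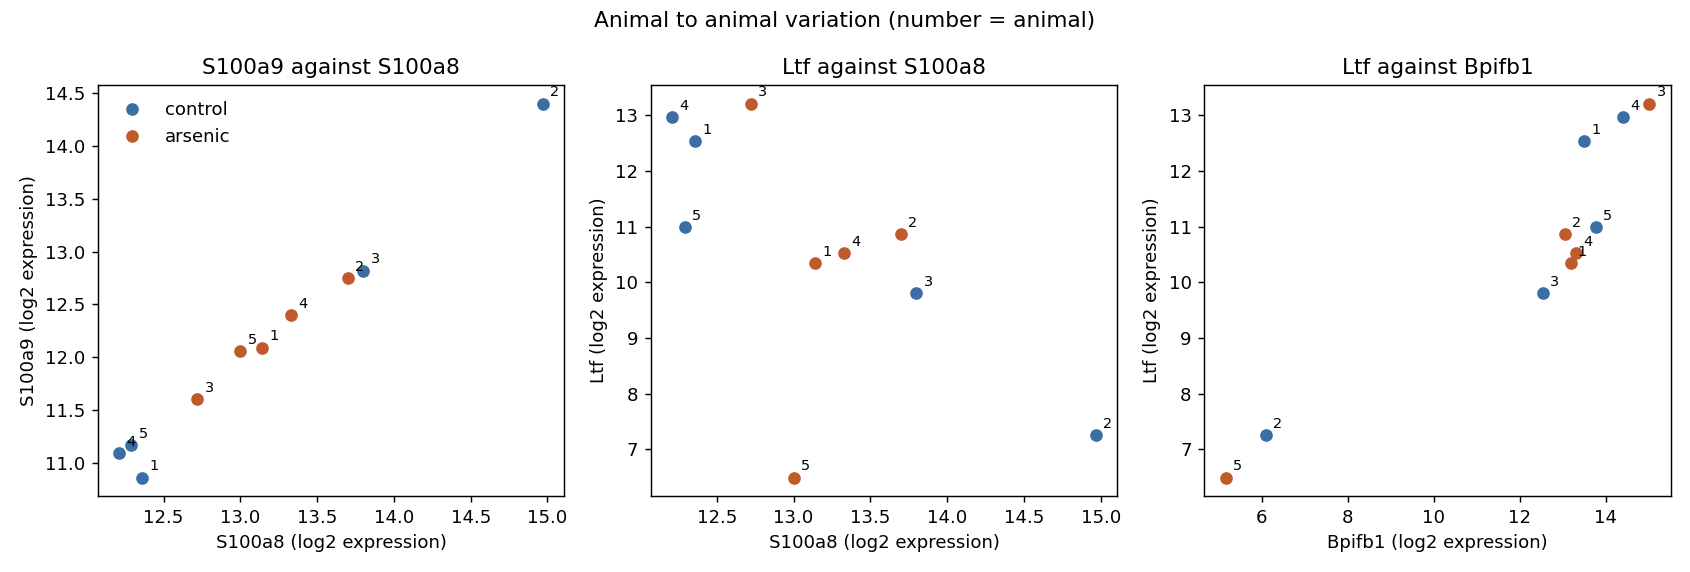
Log2 expression of pairs of genes, 1 point per animal, with control lungs in blue, arsenic lungs in orange and the animal number beside each point. S100a9 rises with S100a8 along a line (r = 0.98 without control animal 2). Ltf and S100a8 have r = -0.64 over all animals, which did not pass, and r = -0.88 without arsenic animal 5, which did. Without control animal 2 as well, their r is -0.73 over 8 animals and did not pass. Both animals were left out after their values were seen. Ltf rises with Bpifb1 both across the gap to control animal 2 and arsenic animal 5 and among the other 8 animals (r = 0.88).

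Lcn2, lipocalin 2, was the steadiest member past the filter. Its values were 13.59, 13.36, 13.25, 13.60 and 13.58 in controls and 13.50, 13.89, 13.40, 13.13 and 13.36 with arsenic. All 10 lungs lay within 0.76, or 1.70-fold, and control animal 2 ranked 8 of 10. The difference was -0.02 (SE 0.14, 95% interval -0.32 to 0.28, limma adjusted p = 0.948), the narrowest interval of the 7 members. Its r with the 5 genes was -0.50 to -0.17, and 0 of these pairs passed.

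Camp, the precursor of the antimicrobial peptide cathelicidin, and Ngp, a related protein, are stored in specific granules and transcribed mainly in the marrow. Both were near the floor of the scale. Camp read 1.95 to 2.02 in all 10 lungs. Ngp read 2.35 to 2.42 in 9 lungs and 2.84 in control animal 2. Neither exceeded the table's median of 4.20 on any array. Among all probe sets the difference was -0.09 for Ngp (SE 0.09, limma adjusted p = 0.547) and -0.02 for Camp (SE 0.02, limma adjusted p = 0.472). GCRMA pulls dim probe sets towards a common floor, so differences between lungs at these values are understated, and a dim value here does not show that the transcript was absent.

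Most genes of the primary granules were as dim. Of 11 primary granule and precursor genes with a probe set, 8 were below the filter, among them Mpo (myeloperoxidase, 2.23 to 2.31) and Elane (neutrophil elastase, 2.23 to 2.28), and Gfi1, a transcription factor of early granulocytes, read 2.72 to 2.95. The other 3 were brighter: Cd177, a surface protein of neutrophils, read 4.75 to 7.19, the protease inhibitor gene Serpinb1a 8.97 to 9.79 and the chitinase-like gene Chil1 14.13 to 14.52. Of these, 0 passed (median difference -0.12). These 3 did not have their highest value in control animal 2.

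Genes of mature neutrophils were in part highest in the same lung. Of 25 with a probe set, 16 were tested, 0 rose and 0 fell (median 0.03). 6 of the 16 (37.5%) had their highest value in control animal 2, where 8.74% of all genes did (990 of 11333). Cxcr2, the chemokine receptor of circulating neutrophils, read 5.27, 6.21, 5.39, 5.36 and 5.30 in controls and 5.31 to 5.52 with arsenic. Stfa2l1, a stefin of the cystatin family, read 3.77, 7.82, 5.91, 4.00 and 4.33 in controls and 4.73, 5.83, 4.29, 5.53 and 5.45 with arsenic. Control animal 2 was the highest lung for both, and control animal 3 was next for Stfa2l1. Other genes of this list were not raised there: control animal 2 stood at 0.904-fold the median of the other lungs in Hp, 0.935-fold in Lrg1 and 1.03-fold in Hdc.

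Among the 16 tested genes, 8 differences were above zero and 8 below, where 63.2% of all genes were above zero. The 4 with the smallest unadjusted p had higher means with arsenic. Clec4e, a C-type lectin that senses fungi and damaged cells, read 2.52, 4.38, 4.33, 3.90 and 4.19 in controls and 4.51 to 4.82 with arsenic, without overlap; the difference of 0.78 (SE 0.31) did not pass (limma adjusted p = 0.273). Il1r2, the decoy receptor of interleukin 1, had 0.72 (SE 0.30, limma adjusted p = 0.284). Clec4d, the partner of Clec4e, had 0.96 (SE 0.51, limma adjusted p = 0.379) and was highest in control animal 2 at 9.66. Alox5ap, needed for leukotriene synthesis, had 0.27 (SE 0.13, limma adjusted p = 0.347). Ly6g, which defines mouse neutrophils, was not analysed here.

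All 5 tested subunits of the phagocyte oxidase, which makes superoxide in neutrophils and macrophages, were highest in control animal 2, but by little: 1.15-fold over the median of the others for Cyba to 1.71-fold for Rac2. With arsenic 0 rose and 0 fell (median -0.05). The catalytic subunit Cybb had the largest difference, -0.30 (SE 0.13, limma adjusted p = 0.314).

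Among 14 chemoattractants and growth factors of neutrophils, 6 were tested, 0 rose and 0 fell (median 0.02). Cxcl1, a chemokine that draws neutrophils through Cxcr2, was below the filter but read 8.25 in control animal 2, against 2.70 to 3.91 in the other 9 lungs, at least 40-fold over their median, which lies near the floor of the scale. Another Cxcl1 probe set gave 7.04 there and 2.42 to 2.72 elsewhere. Cxcl2 read 3.44 there and 2.40 to 2.47 elsewhere. Csf3, the ligand of Csf3r, lay between 2.36 and 2.47 in every lung.

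Il1b, interleukin 1 beta, was also highest in control animals 2 and 3, at 10.35 and 9.33, against 8.30 to 8.45 in the other controls and 7.38 to 8.53 with arsenic. Its difference was -0.94 (SE 0.38, limma adjusted p = 0.281). Csf2, granulocyte-macrophage colony-stimulating factor, had 0.62 (SE 0.27, limma adjusted p = 0.298), and the stromal chemokine Cxcl12 had -0.25 (SE 0.13, limma adjusted p = 0.374).

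Receptors, relatives and inhibitors of the members showed no called difference. Of 7 receptors of calprotectin and lipocalin 2, 0 passed (median -0.03), with Ager at -0.03 (SE 0.08) and Tlr4 at 0.02 (SE 0.12). Of 8 other S100 genes tested, 0 passed, and all 8 differences were above zero with a median of 0.07, close to the 0.057 of all genes; S100a10 had the smallest p, with 0.17 (SE 0.09, limma adjusted p = 0.388). Of 5 inhibitors of matrix metalloproteinases, 0 passed (median 0.03), and Timp1, which binds Mmp9, had -0.41 (SE 0.29, limma adjusted p = 0.486). Of 7 granulocyte transcription factors, 0 passed (median 0.10). Cebpa, which starts the granulocyte programme and is also expressed in alveolar epithelium, was 11.06 to 11.41 in controls and 11.44 to 11.83 with arsenic, without overlap, but did not pass (0.37, SE 0.09, limma adjusted p = 0.137).

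**Figure D4:**
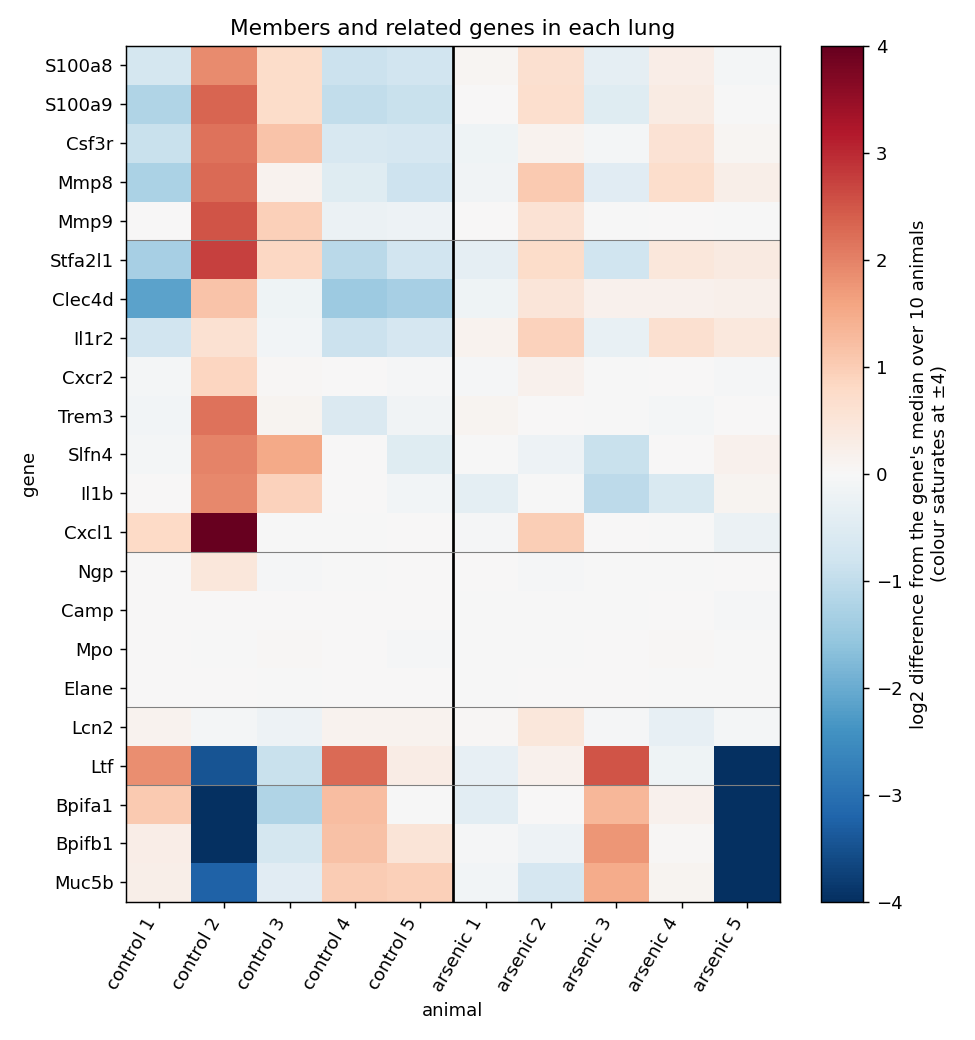
Log2 difference of each gene (rows) from its own median over the 10 lungs (columns, controls left of the line), with red above and blue below, the colour saturating at ±4. Control animal 2 is red for S100a8, S100a9, Csf3r, Mmp8, Mmp9 and Cxcl1 and blue for Ltf, Bpifa1, Bpifb1 and Muc5b, the last 4 of which are also blue in arsenic animal 5, and Camp, Mpo and Elane are near white throughout. The rows are a selection from the lists, and mature neutrophil genes that were not raised in control animal 2, such as Hp and Lrg1, are not drawn.

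Marker lists of other blood and lung cells gave these values beside the member results. Of 9 eosinophil and mast cell markers, 9 were below the filter, with a mean level of 2.33 to 2.64. The 5 erythroid markers with a probe set, of which Hba-a1 was below the filter, had mean levels of 8.06, 8.47, 8.52, 8.49 and 8.22 in controls and 8.41, 8.51, 8.54, 8.71 and 8.33 with arsenic. Control animals 1 and 5, low in S100a8, were the lowest. Control animal 4, the lowest of all lungs in S100a8, stood at 8.49, and control animal 2, the highest in S100a8, at 8.47. With the erythroid level as a covariate S100a8 moved to -0.30 and S100a9 to -0.37, and neither passed. The 6 platelet markers had a median difference of 0.22, the 5 B cell markers of -0.41 and the 4 T cell markers of 0.10, with 0 called in each. Of 8 monocyte markers, 1 fell, Nr4a1 (-2.54, SE 0.24, limma adjusted p = 0.005), while 5 of the 8 differences were above zero (median 0.14). Of 9 alveolar macrophage markers 0 passed (median 0.23). The 12 kidney transcripts had a median difference of 0.74 with 12 of 12 above zero and 0 called; with the mean level of all 22 as a covariate S100a8 moved to -0.025. The part of blood content and of kidney RNA in the member values was not tested beyond these fits.

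Likeness to the members was described by Pearson's r of group-centred values over the 10 arrays, with no test. The genes most like S100a8 were Stfa2l1 (0.970), Mbd2 (0.940), Nfe2 (0.934), Clec4d (0.932), Slfn1 (0.929), Fam171a1 (0.918), Cdc42bpg (0.918) and H2-Q10 (0.917). Without control animal 2, Stfa2l1 had r = 0.91 and ranked 3 among all genes and Mbd2 had 0.88 and ranked 9, while the other 6 ranked between 23 and 77. Stfa2l1 and Clec4d were also on the list of mature neutrophil genes, and Clec4d ranked 47 without control animal 2. The genes most like S100a8 without that animal were Acvr2b (0.941), 0610030E20Rik (0.937), Stfa2l1, Clstn2, Foxf2, Zfp354c, Rasl12 and Zcchc24. Of these, only Stfa2l1 was on a neutrophil list. The genes most like the mean of the 7 members were Rad54l2 (0.900), Tmem250-ps (0.895), Dcaf12, Brd1, Cd300ld, Dnajc18, Spg20 and Mlycd (0.843), an average that includes Ltf and Lcn2.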

How the data were processed

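Lung RNA of 10 mice was read on Affymetrix Mouse430_2 arrays, and the authors deposited 1 log2 value per probe set and array. Per the submitters' processing notes the method was GCRMA, which corrects background by probe sequence and normalizes between arrays; which version, and whether values were filtered, is not given in the sources used here. The log2 scale was read from the range of the deposited values, 0.619 to 16.3. Detection calls were not used here.

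The members and gene lists were chosen with earlier results of these data known. Named genes are all members, up to 4 genes per list with the smallest p, a few set genes (Ly6g, Cxcr2, Mpo, Elane, Cebpe, Gfi1, Cxcl1, Cxcl2, Csf3, Ager, Tlr4, Timp1) and the 8 genes most like S100a8 and the members' mean; others were named after their values were seen. Cebpe was not analysed here.

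Of the probe sets, 34958 had 1 symbol in the platform annotation, 932 several and 9211 were not listed. A probe set was kept if above the table median, 4.20, on at least 5 arrays, and the kept one with the highest mean stood for its gene. Groups were compared with limma 3.58.1 in R 4.3.3 without covariates, with Benjamini-Hochberg adjustment over all genes or all probe sets; the fit was tested on simulated data. Correlations had 1e+05 permutations, or all 40320 orders of 8 animals. Alternatives were other filters, probe set rules, normalizations, eBayes settings, array weights, a replicate block, kidney and erythroid covariates and leaving out animals. The number of arrays limits the precision. Figures were drawn with matplotlib 3.10.9.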

Additional observations from a re-analysis of the deposited data

Results flagged for a closer look

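Among 128 groups of 5 animals checked for the members and named genes, 11 held 1 animal far from the other 4, where chance gives about 1 in 20 groups; 5 of the 11 were control animal 2 and 2 of the 11 concerned members. Ngp read 2.84 in control animal 2 and 2.36 to 2.42 in the other controls. Mmp9 read 8.15 in arsenic animal 2 and 7.54 to 7.59 in the other arsenic animals. Cxcr2 read 6.21 in control animal 2 against 5.27 to 5.39, and 5.52 in arsenic animal 2 against 5.31 to 5.37. Cxcl1 read 8.25 in control animal 2 against 2.91 to 3.75, and 3.91 in arsenic animal 2 against 2.70 to 2.95. Cxcl2 read 3.44 in control animal 2 against 2.41 to 2.47, and Csf3 was lower there, at 2.40 against 2.43 to 2.44. Clec4e was low in control animal 1, at 2.52 against 3.90 to 4.38. Mpo read 2.31 in arsenic animal 4 against 2.26 to 2.28, and Gfi1 2.95 in arsenic animal 3 against 2.72 to 2.77. The gaps of Csf3 and Mpo were below 0.1 on the log2 scale, at the floor of the array.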

How the results depend on the processing

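Over 302 recomputed values, 236 kept their direction and side of the threshold, 36 reversed, and 27 counts fell and 3 rose by over 1.5 times; 0 members passed an adjusted p of 0.05 in any setting, so every reversal is of a difference that did not pass. By limma, 54 genes passed, but 19 without a filter, 5 with a replicate block, 2 with the kidney covariate, 7 with the erythroid covariate, 11 without control animal 2 and arsenic animal 4, and 9 to 41 when 1 animal was left out. With every probe set, 19 passed, against 30 with trended robust eBayes, 56 with array weights, 0 with a replicate block, 1 with the kidney covariate, 0 with the erythroid covariate, 0 without those 2 animals, and 0 to 35 when 1 animal was left out (0 without control animal 2, for example); at an unadjusted p of 0.05 there were 6200. The share of higher calls was 79.6%, but 67.2% with the probe set of largest variance and 89.6% with median centring, which moved the median of all genes to 0.12. With median centring Lcn2 was at 0.043 and Camp at 0.042. With array weights Csf3r was at 0.0047 and the dimmer Mmp9 probe set at 0.21. With the kidney covariate S100a8 was at -0.025, S100a9 at -0.074 and Lcn2 at 0.099; with the erythroid covariate S100a8 was at -0.30, S100a9 at -0.37, Mmp8 at -0.18 and Lcn2 at 0.062. Without control animal 2 and arsenic animal 4, Csf3r was at 0.26, Mmp9 at 0.015 and 0.51 by its probe sets, and Lcn2 at 0.033. Leaving out 1 animal gave -0.17 to 0.51 for S100a8, -0.20 to 0.69 for S100a9, -0.40 to 0.37 for Csf3r, -1.29 to 0.52 for Ltf, -0.0028 to 0.88 for Mmp8, -0.13 to 0.061 for Lcn2 and -0.55 to 0.47 for the dimmer Mmp9 probe set. Of the 21 pairs 10 passed, 1 of 6 with the filter at the 75th percentile, which keeps 4 members, and 8 to 15 when 1 animal was left out (15 without arsenic animal 5); the cause of the other changes was not tested. Same-numbered animals correlated at -0.04, 0.12, -0.33, 0.25 and -0.18, and 0 of 5 matched best, so this measure showed no pairing by replicate number. In S100a8, S100a9, Mmp8 and both Mmp9 probe sets, though not in the other members analysed, animal 2 was the highest of its group in both groups. With the replicate block the SE went from 0.49 to 0.40 for S100a8 and from 0.58 to 0.40 for Mmp8. It went from 1.29 to 1.3 for Ltf and from 0.14 to 0.15 for Lcn2. Pairing within the members was not tested. The number of animals limits small differences: the 95% interval of S100a8 reaches from -1.03 to 1.14.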

Other observations

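The genes most like Ltf over the 10 arrays, by group-centred r and with no test, were Oit1 (0.985), Adipoq (0.984), Car3 (0.981), A2ml1 (0.969), Sult1d1 (0.968), Slc2a4 (0.967), Calml3 (0.962) and Reg3g (0.959). Adipoq, the hormone adiponectin of fat cells, read 9.99, 1.93, 6.54, 10.05 and 7.08 in controls and 7.29, 6.46, 11.27, 7.41 and 1.97 with arsenic. Reg3g, an antibacterial lectin of epithelium, read 11.47, 1.75, 8.78, 12.37 and 10.83 in controls and 10.77, 9.79, 13.09, 10.81 and 3.00 with arsenic. In both, control animal 2 and arsenic animal 5 were lowest and arsenic animal 3 highest. Over the other 8 animals r was 0.98 for Oit1, 0.95 for Adipoq, 0.94 for Car3 and 0.92 for Reg3g, which ranked 5, 18, 26 and 33 among all genes. It was 0.90 for A2ml1 and Slc2a4 and 0.88 for Sult1d1 and Calml3, with ranks of 51 to 80. The genes most like Ltf over those 8 animals were Cdh26 (0.991), Gsto1 (0.983), H2az1 (0.981) and Cldn22 (0.981). The arsenic difference was -0.24 for Adipoq (limma adjusted p = 0.955) and 0.45 for Reg3g (limma adjusted p = 0.932).

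The genes most like Lcn2 were Ap4b1 (0.956), AI429214 (0.948), Mal (0.932) and Higd1a (0.932), none of them on the neutrophil lists. Trem3, a receptor of myeloid cells below the filter, read 6.34 in control animal 2 and 3.59 to 4.28 in the other 9 lungs. Slfn4, a schlafen gene of myeloid cells also below the filter, read 5.15 in control animal 2, 4.66 in control animal 3 and 2.26 to 3.34 elsewhere. Padi4, which modifies histones in neutrophils, read 5.49 in arsenic animal 3, 3.68 in control animal 2 and 2.86 to 3.08 in the other 8 lungs.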
